A study of Arabidopsis thaliana with 12 samples.

Results

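The genes described here responded to induction of WUSCHEL (WUS) alone, and showed little or no response when protein synthesis was blocked at the same time. They were chosen on measured values. A probe set was taken when its mean signal was 100 or more in mock or Dex and also in Cyc, when its mean in Dex was at least 2 times or at most 0.5 times its mean in mock, when no Dex array overlapped with a mock array, and when the ratio of its means in Dex+Cyc and Cyc lay between 0.83 and 1.2. This rule found 63 of 22746 probe sets, 28 raised and 35 lowered by Dex, of which 50 have a named locus (22 raised and 28 lowered). They are candidates for indirect regulation by WUS, and the cause of the lost response was not tested. In 16 of the 28 raised members the Cyc mean was at or above the Dex mean (4532 of 13093 probe sets past the floor). In 5 of the 35 lowered members it was at or below the Dex mean (8561 of 13093). In these the level in Cyc alone was already as far from mock as in Dex.

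WUS is a homeodomain TF made in the organizing center of the SAM, and it moves into the overlying stem cells of the CZ, where it activates *CLV3*. A WUS-GR fusion stays in the cytoplasm until Dex binds its receptor domain. Cyc stops translation, so a gene that answers to WUS through a newly made second regulator should lose its response to Dex when Cyc is present, while a gene that WUS acts on through existing proteins can keep it. Cyc also changes the level of many transcripts by itself, in part because short-lived repressors and RNA-degrading proteins are no longer replaced.

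All 4 groups were SAMs of about 28-day-old *ap1-1;cal1-1* plants carrying *35S::WUS-GR*, a transgene under a promoter active in nearly all cells, and each group had 3 ATH1 arrays. The groups were mock, Dex (10 μM), Cyc (10 μM) and Dex+Cyc (10 μM of each), all treated for 4 h, with SAMs of many plants pooled for each RNA. The study describes the treatments with Cyc as independent experiments, so in the comparison of Cyc with mock the inhibitor and the experiment cannot be told apart. Plants without the transgene were not analysed here, and the labels do not state whether the 3 samples of a group are separate plants, so the p-values cover the spread between samples, which may be technical. Values are MAS5 signals, a linear brightness per probe set, and array medians were 213.4 to 225.9 in mock, 212.4 to 220.2 in Dex, 217.9 to 221.8 in Cyc and 224.2 to 235.5 in Dex+Cyc. Of 15 shoot meristem markers, 6 had a named probe set and all 6 were past the signal floor of 100, led by *KNAT1*, with 3320, 2648 and 2612 on the mock arrays. *CLV3* reached it in Dex but not in mock, with means of 912 and 85.9. The ratios of Dex to mock were 10.6 for *CLV3*, 1.97 for *CUC1*, 0.733 for *FIL*, 0.525 for *UFO*, 0.499 for *CUC3* and 0.292 for *KNAT1*. These markers thus moved with Dex, in both directions. The markers of epidermis, leaf photosynthesis, phloem, xylem and root have no named probe set here, so other tissues in the samples were checked by 4 genes. The floral organ genes *PI* and *SEP1* were past the floor, with 777, 1236 and 1041 and with 574, 539 and 880 on the mock arrays, and their ratios of Dex to mock were 0.699 and 1.21. *GL1* of trichomes gave 111, 67.2 and 61.9 in mock, 235, 209 and 319 in Dex, 29.7, 28.5 and 51.4 in Cyc, and 99.5, 105 and 115 in Dex+Cyc. *GL1* was thus higher with Dex both without and with Cyc, and *FAMA* of guard cells was under 100 on every array. The part of these tissues in the results was not tested. In bulk samples fewer cells of a type and less RNA per cell cannot be told apart.

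In Dex against mock, 157 probe sets past the floor were raised (1.2% of 13093) and 299 were lowered (2.28%) by the rule's limits. The members were 17.8% of the raised and 11.7% of the lowered responses. Responses that kept at least a 2-fold change in Dex+Cyc against Cyc, with arrays apart, numbered 35 raised (22.3%) and 88 lowered (29.4%). The remaining responses lay between, so the members are the end of a range. The ratio of Dex+Cyc to Cyc had a median of 1.09 in the raised members and was above 1 in 20 of 28, where 56.8% of all probe sets past the floor were above 1, with a median of 1.03. It had a median of 0.894 in the lowered members and was below 1 in 29 of 35 (43.2% of those past the floor). All Dex+Cyc arrays were above all Cyc arrays in 3 of 28 raised members (*A/N-InvC*, *CYTC6A* and AT2G44500) and below them in 1 of 35 lowered members (*sks4*), beside 11.5% and 9.61% of all probe sets, so these counts were no higher than the background. These are values the rule used, and they are given as a description.

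The levels reached in Cyc alone are not among the 2 ratios the rule used, although the mock and Cyc arrays entered it. They were compared with mock by limma over all 22746 probe sets, at an adjusted p under 0.01 with at least a 2-fold change. Among the raised members, 18 of 28 were higher in Cyc than in mock, 0 were lower and 10 did not pass, beside 8.26% higher and 7.28% lower of all probe sets (8.49% and 10.2% of those past the floor). The members were chosen for low mock arrays, which also serve as the control here, and of all 157 raised Dex responses, which share that choice, 31.2% were higher in Cyc and 7.64% lower. All Cyc arrays were above all Dex arrays in 15 of the 28, beside 20.4% of all probe sets. Among the lowered members, 7 of 35 were higher in Cyc, 7 were lower and 21 did not pass, where of all 299 lowered Dex responses 17.7% were higher and 28.8% lower. Both of these sets were chosen for high mock arrays. The median log2 change from mock to Cyc was 1.96 in the raised members, 0.04 in the lowered members, 0.37 and −0.41 in all raised and all lowered Dex responses, and −0.18 over all probe sets.

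Part of the count for the raised members follows from the signal floor. A raised member may have a mock mean under 100, since only mock or Dex has to reach the floor, but its Cyc mean must be 100 or more. The 9 raised members with a mock mean under 100 were all among the 18 higher in Cyc. Of the 19 with a mock mean of 100 or more, 9 were higher in Cyc, or 47.4%, beside 8.08% of the 12988 probe sets that reach 100 in both mock and Cyc. Unlike the 19, the 12988 were not chosen for low mock arrays. Of all 157 raised Dex responses, which were and which include the members, 31.2% were higher in Cyc. The 157 also hold probe sets with a mock mean under 100, so this share and the 47.4% are not on the same base. The floor works the other way on the lowered members, because a gene that Cyc brought under 100 could not enter, and 10.3% of the same 12988 probe sets were lower in Cyc.

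**Figure D1:**
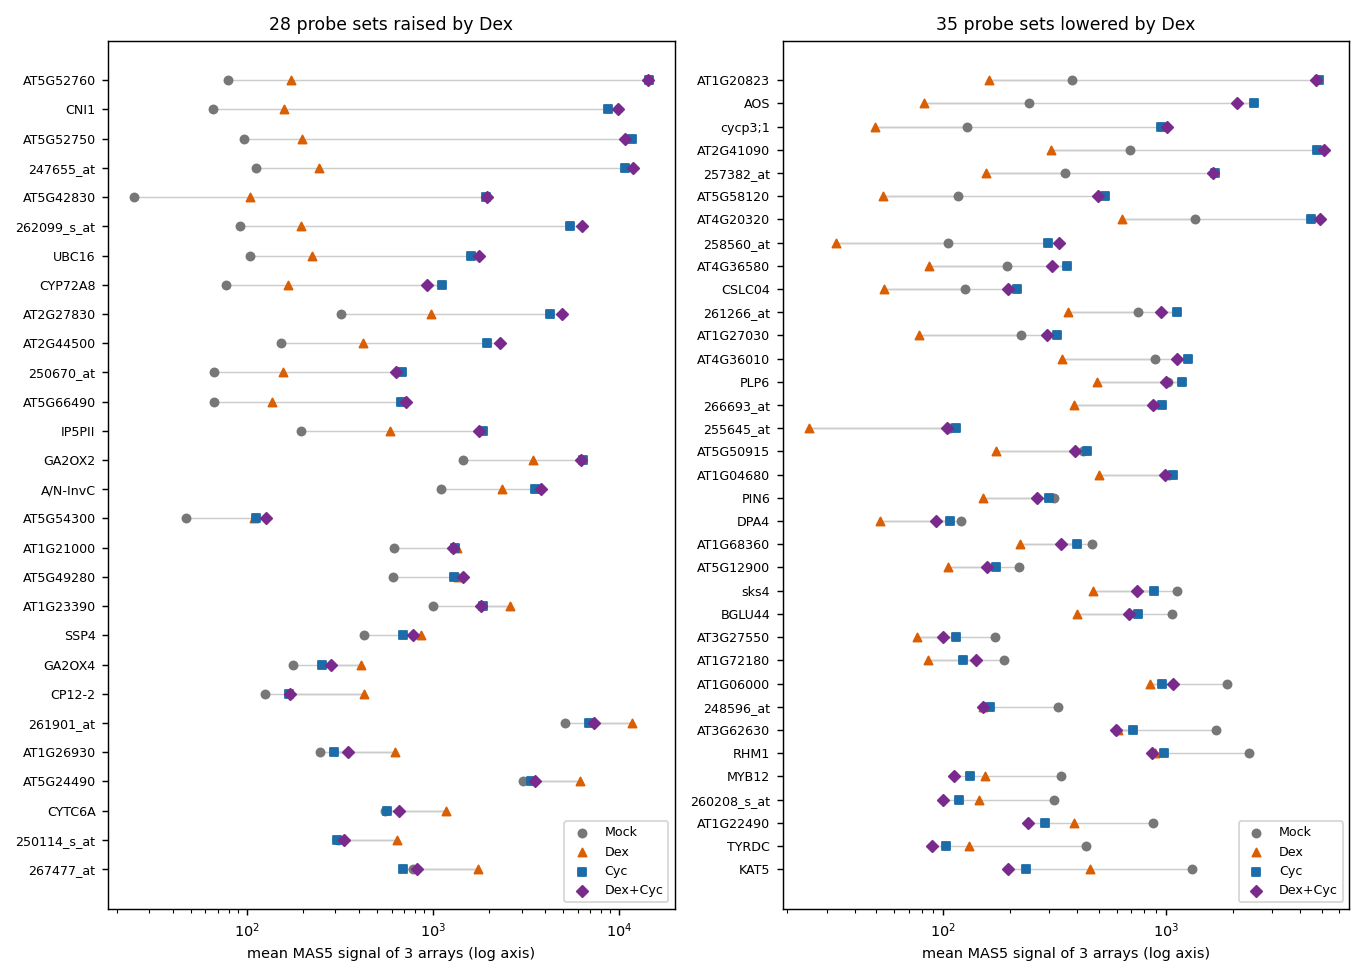
Mean MAS5 signal (log axis) of each of the 63 members in mock, Dex, Cyc and Dex+Cyc, with 3 arrays per mean and the probe sets ordered by the ratio of Cyc to mock. At the top of both panels the Cyc and Dex+Cyc means lie far to the right of mock, and for 12 raised and 2 lowered members the Cyc mean is at least 10 times the mock mean.

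The raised members with the highest ratios of Cyc to mock are genes for which the Dex response was small beside that of Cyc. *CNI1* encodes a RING-type ubiquitin ligase known from the response of seedlings to the balance of carbon and nitrogen. Its signals were 42.2, 69.1 and 86 in mock, 212, 114 and 150 in Dex, 7926, 10053 and 8100 in Cyc, and 9663, 10164 and 9900 in Dex+Cyc. Dex thus raised it 2.41-fold without Cyc. Cyc alone raised it 132-fold (log2 change 7.10, SE 0.28, adjusted p = 1.8e-07), and the lowest Cyc array was far above the highest Dex array. The mock mean of *CNI1* was 65.8, under the signal floor, so it entered only through groups where it was high. Its fold changes and p-value are therefore set against dim mock arrays. AT5G52750 and AT5G52760, which lie next to each other on chromosome 5, behaved alike. AT5G52760 gave 7.78, 109 and 120 in mock, 230, 148 and 140 in Dex, 13674, 15888 and 13897 in Cyc, and 14744, 14372 and 13826 in Dex+Cyc, so that mock array 1 was dim and the other mock arrays were just below Dex. The ratio of Cyc to mock was 184 for AT5G52760 and 122 for AT5G52750. Their mock means, 78.9 and 96.9, were under the signal floor too.

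AT5G42830 had the largest Dex response of all raised members at 4.19-fold. It gave 28.9, 34.8 and 10.6 in mock, 104, 119 and 88.4 in Dex, and 1429, 2218 and 2117 in Cyc, so its Dex arrays were well apart from mock and still near the floor. *UBC16*, a ubiquitin-conjugating enzyme, rose 15.5-fold with Cyc (log2 change 3.96, SE 0.19, adjusted p = 4.53e-07) and *CYP72A8*, a cytochrome P450, rose 14.4-fold (3.85, SE 0.26, adjusted p = 4.36e-06). Others at 10-fold or above were AT2G27830 (13.3-fold), AT2G44500 (12.9-fold), AT5G66490 (10.1-fold) and the unnamed 247655_at, 262099_s_at and 250670_at (95.4-, 58.9- and 10.2-fold). With these, 12 of 28 raised members had a Cyc mean at least 10 times the mock mean, beside 2.98% of all probe sets and 1.7% of those past the floor. Among all 157 raised Dex responses, which share the choice for low mock arrays and include these 12, 19 had such a ratio. In 8 of the 12 the mock mean was under 100, so they reached the floor only through the groups where they were high. Among the 19 raised members with a mock mean of 100 or more, 4 had such a ratio, beside 1.47% of the probe sets that reach 100 in both mock and Cyc. Those probe sets were not chosen for low mock arrays.

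*IP5PII* and *A/N-InvC* were higher in Cyc by less, from mock levels above the floor. *IP5PII* encodes an inositol polyphosphate 5-phosphatase, which removes a phosphate from inositol phosphates used in signalling. It gave 185, 180 and 224 in mock, 462, 632 and 674 in Dex, 1538, 2091 and 1921 in Cyc, and 1589, 1967 and 1757 in Dex+Cyc. The Cyc and Dex+Cyc arrays overlap and all lie above Dex, and the log2 change in Cyc was 3.23 (SE 0.18, adjusted p = 1.04e-06). *A/N-InvC*, a neutral invertase that splits sucrose, gave 964, 1208 and 1131 in mock, 2898, 2050 and 2109 in Dex, 3694, 3239 and 3648 in Cyc, and 3881, 3742 and 3865 in Dex+Cyc. Its Dex+Cyc arrays stood just above the Cyc arrays. The log2 change of *A/N-InvC* in Cyc was 1.68 (SE 0.15, adjusted p = 2.21e-05). The smallest called rises were those of AT5G54300 (2.38-fold), AT1G21000 (2.14-fold) and AT5G49280 (2.11-fold), whose Cyc and Dex arrays overlapped.

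Both gibberellin 2-oxidases among the raised members, *GA2OX2* and *GA2OX4*, encode enzymes that inactivate gibberellin, a hormone that promotes growth and differentiation and is kept low in the SAM. Their levels in Cyc were not alike. *GA2OX2* gave 783, 2068 and 1508 in mock, 3319, 3202 and 3772 in Dex, 7112, 5601 and 6414 in Cyc, and 5982, 6686 and 6199 in Dex+Cyc. Mock array 1 was low, Cyc was above Dex on every array, and Cyc and Dex+Cyc overlapped, with a log2 change in Cyc of 2.24 (SE 0.29, adjusted p = 0.000261).

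*GA2OX4* gave 175, 183 and 173 in mock, 407, 387 and 433 in Dex, 265, 218 and 281 in Cyc, and 329, 256 and 266 in Dex+Cyc. Its Cyc arrays lay above mock and below Dex, with a log2 change of 0.52 (SE 0.13, adjusted p = 0.0107) that did not pass. It was found by the rule whichever of the 12 arrays was left out. *GA2OX6*, which is no member, was listed at 32.9, 15.6 and 8.03 in mock and 16.5, 9.05 and 26.8 in Dex, and reached 675, 1088 and 959 in Cyc. Of the 17 genes of the gibberellin list, 6 had a named probe set, of which 1 was a member (*GA2OX2*). In Cyc 3 of the 6 were higher and 1 was lower, beside 8.26% and 7.28% of all probe sets. The lower gene, *GASA1*, a gibberellin-regulated gene, had a ratio of Dex to mock of 2.75 and the same ratio of Dex+Cyc to Cyc.

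**Figure D2:**
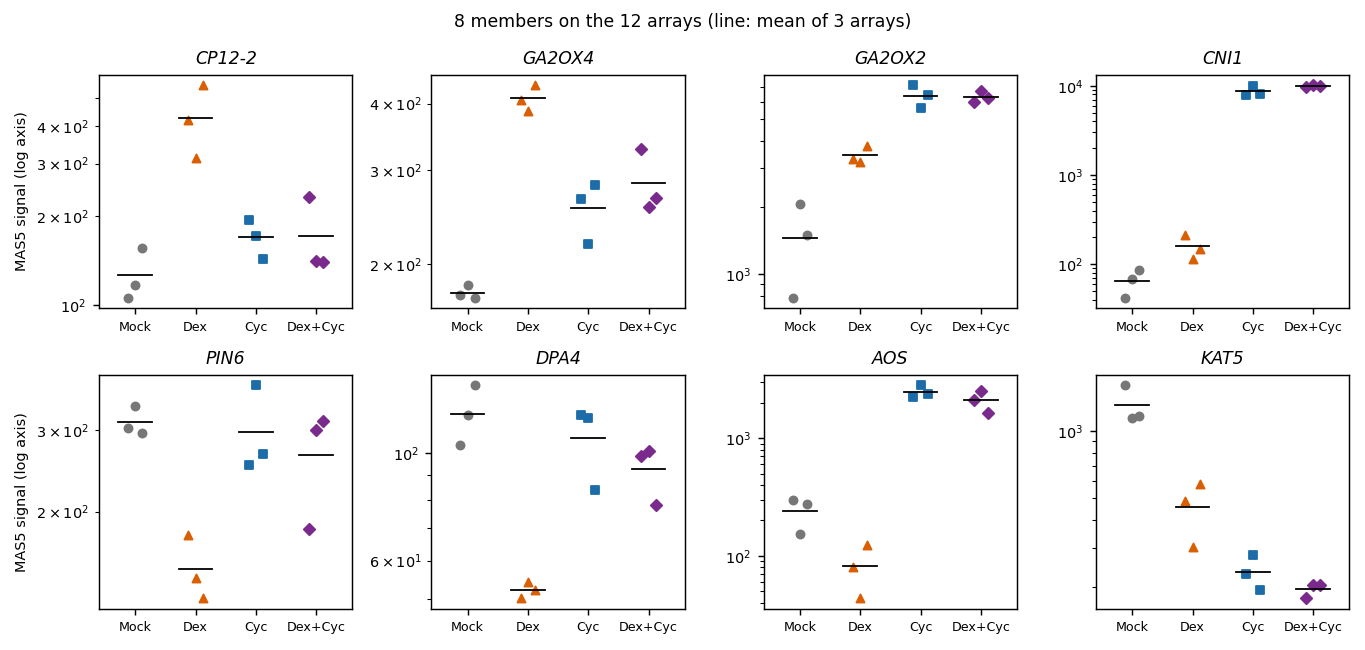
MAS5 signals (log axis, scaled for each gene) of 4 raised members (top) and 4 lowered members (bottom) on the 12 arrays, with a line at the mean of the 3 arrays of each group. Cyc leaves *CP12-2*, *PIN6* and *DPA4* near mock, sets *CNI1*, *GA2OX2* and *AOS* far above both mock and Dex, and takes *KAT5* below Dex.

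In 10 raised members Cyc did not pass the test, and these are the members whose response was lost from a level in Cyc at or moderately above that of mock. The clearest was *CP12-2*, which encodes a chloroplast protein that regulates the Calvin cycle by binding its enzymes. It gave 106, 117 and 156 in mock, 421, 313 and 551 in Dex, 194, 171 and 143 in Cyc, and 231, 141 and 140 in Dex+Cyc. Dex alone stood apart from all other arrays, at a mean of 428 ± 119 against 126 ± 26.1 in mock (SD, n = 3), and Cyc and Dex+Cyc had means of 169 ± 25.9 and 171 ± 51.9. The log2 change of *CP12-2* in Cyc was 0.43 (SE 0.27, adjusted p = 0.241). AT1G26930, annotated as an F-box protein with kelch repeats, gave 169, 290 and 283 in mock, 642, 604 and 635 in Dex, 298, 265 and 315 in Cyc, and 356, 299 and 395 in Dex+Cyc. It was again high in Dex only, and its ratio of Dex+Cyc to Cyc was the closest to the upper limit, at 1.195.

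*CYTC6A*, which encodes a cytochrome of the chloroplast thylakoid lumen, gave 358, 841 and 461 in mock, 1184, 1118 and 1248 in Dex, 587, 512 and 605 in Cyc, and 627, 650 and 702 in Dex+Cyc. It was high in Dex only, with ratios of 2.14 for Dex to mock and 1.16 for Dex+Cyc to Cyc. *SSP4*, a phosphatase of the family that acts on RNA polymerase II, gave 372, 441 and 463 in mock, 1011, 738 and 843 in Dex, 713, 737 and 618 in Cyc, and 848, 671 and 842 in Dex+Cyc. Its Cyc arrays lay between mock and Dex, and at a log2 change of 0.70 (adjusted p = 0.00562) it missed the 2-fold limit. All Cyc arrays were below all Dex arrays in 9 of the 10, the exception being AT1G23390 (background 33.1% of all probe sets). These 10 were chosen with Dex above mock and with Cyc not called above mock, so this count largely follows from the choice. AT5G24490 and the unnamed 250114_s_at and 267477_at had log2 changes of 0.10, 0.04 and −0.10.

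The raised members depend on mock array 1. This array was the lowest of the mock arrays in 19 of 28, beside 31.8% of the probe sets past the floor, and it was below 0.5 times each of the other mock arrays in 5 of 28, beside 0.779%. AT1G23390, for example, gave 368, 1396 and 1256 in mock and 2571, 2530 and 2700 in Dex, and 2687, 1148 and 1712 in Cyc. The unnamed 261901_at gave 1802, 7361 and 6280 in mock, 11788, 11528 and 11928 in Dex, and 9116, 4223 and 7270 in Cyc. In both, mock array 1 and Cyc array 2 were the low arrays, a pattern found in 10 raised members and in 12.1% of probe sets past the floor. Without mock array 1 the rule found 16 raised members, 15 of them among the 28, so that 13 of the 28 were lost. Without Dex array 1 it found 18, with 16 shared. What sets mock array 1 apart in these genes was not tested. *CP12-2*, *IP5PII*, *GA2OX4*, AT2G44500 and AT5G49280 were found whichever array was left out, and *CYP72A8* and 267477_at were found in only 7 of the 12 cases.

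The lowered members were put into 3 classes by the test of Cyc against mock. They were chosen for high mock arrays, which are also the control of this test, so part of a fall in Cyc may follow from the choice. In the 7 that were lower in Cyc than in mock, Cyc arrays overlapped with Dex arrays in 6 and lay below them in *KAT5*. They include *MYB12*, a TF that activates flavonol biosynthesis genes, and *RHM1*, which makes the UDP-rhamnose used for cell wall pectin and flavonol glycosides. *MYB12* gave 426, 256 and 331 in mock, 124, 163 and 176 in Dex, 106, 152 and 137 in Cyc, and 94.7, 117 and 124 in Dex+Cyc. The 3 treatments overlapped and all lay below mock, with a log2 change in Cyc of −1.34 (SE 0.23, adjusted p = 0.00113). *RHM1* gave 3187, 1565 and 2327 in mock, 843, 930 and 919 in Dex, 933, 1086 and 923 in Cyc, and 798, 1021 and 782 in Dex+Cyc. Its mock arrays were far apart from each other and all above the other 9, with a log2 change in Cyc of −1.21 (SE 0.23, adjusted p = 0.00227).

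*KAT5*, a thiolase of fatty acid β-oxidation, had the largest fall in Cyc. It gave 1602, 1150 and 1168 in mock, 488, 304 and 583 in Dex, 230, 279 and 195 in Cyc, and 179, 205 and 205 in Dex+Cyc, so that it was the only member of the 7 with all Cyc arrays below all Dex arrays. Its log2 change in Cyc was −2.47 (SE 0.25, adjusted p = 4.85e-05). *TYRDC*, a tyrosine decarboxylase, gave 531, 302 and 479 in mock, 124, 172 and 94.5 in Dex, 101, 123 and 85.4 in Cyc, and 86.5, 67.4 and 113 in Dex+Cyc. Its log2 change in Cyc was −2.06 (SE 0.30, adjusted p = 0.00046), and its Cyc mean of 103 was the nearest to the floor. The others of this class were AT1G22490 (*bHLH94*, −1.66), AT3G62630 (−1.24) and the unnamed 260208_s_at (−1.41). *KAT5* and AT1G22490 were each found in only 8 of the 12 sets with 1 array left out.

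The flavonoid pathway shows where *MYB12* stands. Of the 13 genes of the flavonoid and phenylpropanoid list, 7 had a named probe set. Of these, 6 were lowered by Dex at least 2-fold with arrays apart, beside 2.28% of probe sets past the floor. All but *DFR* were named through the study's supplementary tables, a route that favours responding genes. The counts are therefore not of the whole pathway. Only *MYB12* met the limits for a lost response, and it did so in 8 of the 12 sets with 1 array left out. *CHS* and *CHI*, which begin flavonoid synthesis, had ratios of Dex to mock of 0.454 and 0.378 and of Dex+Cyc to Cyc of 0.617 and 0.719. *DFR* and *FLS1*, which lead to anthocyanins and flavonols, had 0.338 and 0.279 without Cyc and 0.676 and 0.592 with it. *PAL1*, which begins the phenylpropanoid pathway, had 0.376 and 0.645. The fall in these 5 enzymes was thus smaller with Cyc and lay outside the window, at a ratio of 0.853 for *MYB12* itself.

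Of the 7 flavonoid genes, 5 were lower in Cyc than in mock (*MYB12*, *CHS*, *CHI*, *DFR* and *FLS1*) and 0 were higher, with a list median of −1.73 on the log2 scale beside −0.18 for all probe sets. Over all probe sets, 7.28% were lower and 8.26% were higher. Of all 299 lowered Dex responses, to which 6 of the 7 genes belong, 28.8% were lower and 17.7% higher, with a median of −0.41. *FLS1*, flavonol synthase, gave 5290, 2040 and 3819 in mock, 969, 1006 and 1132 in Dex, 713, 1436 and 1097 in Cyc, and 465, 759 and 697 in Dex+Cyc. Its Cyc arrays spread around the Dex arrays, and the highest Dex+Cyc array was above the lowest Cyc array. *PAL1* differed, with 1351, 856 and 815 in mock, 361, 362 and 412 in Dex, and 827, 1036 and 1040 in Cyc (log2 change −0.03, adjusted p = 0.938). AT1G06000, a lowered member outside the list, gave 2702, 1126 and 1826 in mock, 833, 821 and 887 in Dex, and 887, 975 and 1012 in Cyc. Mock array 2 was the lowest mock array of *MYB12*, *RHM1*, *FLS1* and AT1G06000, as in 20 of 35 lowered members (40% of probe sets past the floor). Without mock array 2 the rule found 58 lowered and 44 raised members, 32 and 23 of them among the 35 and 28.

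**Figure D3:**
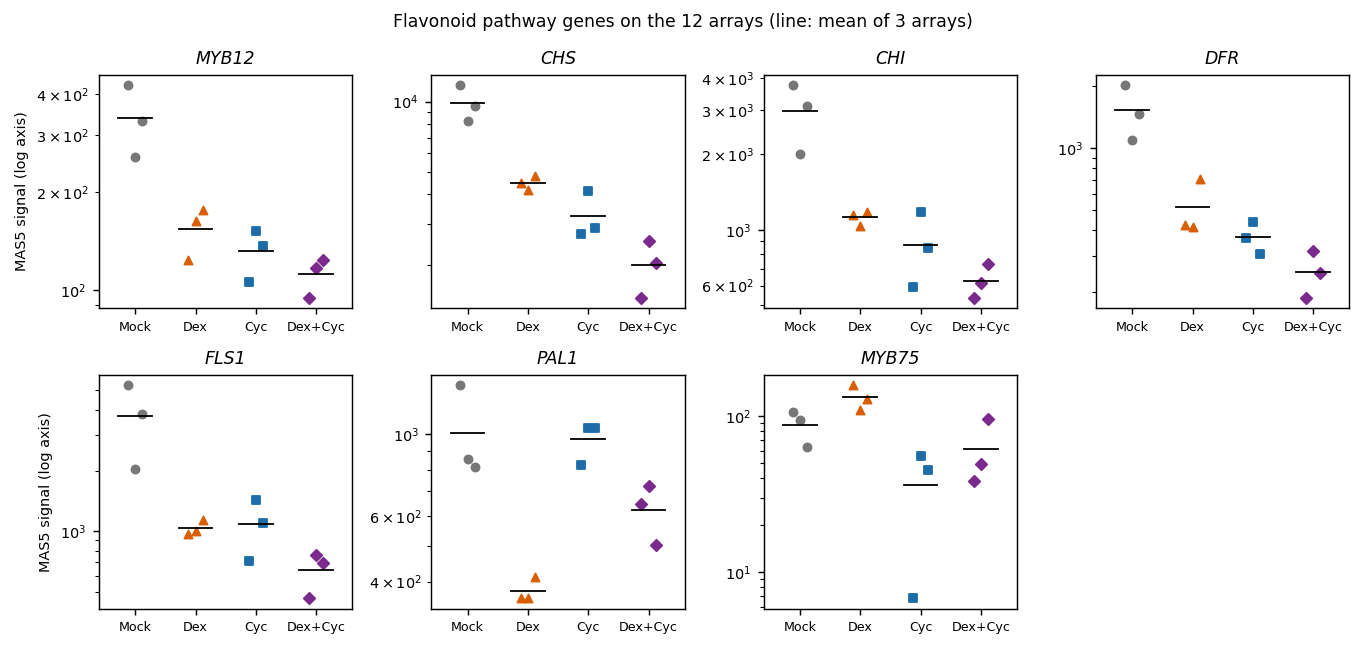
MAS5 signals (log axis, scaled for each gene) of the 7 measured flavonoid and phenylpropanoid genes on the 12 arrays, with a line at the mean of 3 arrays. Dex lowered all but *MYB75*, and in the 5 genes lower in Cyc the Cyc arrays lie around or below the Dex arrays.

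In the second class, 7 lowered members were higher in Cyc than in mock, so that the fall with Dex and the rise with Cyc went opposite ways. *AOS*, allene oxide synthase, makes the first committed intermediate of jasmonate. It gave 296, 153 and 277 in mock, 80, 43.7 and 123 in Dex, 2231, 2804 and 2394 in Cyc, and 2111, 2535 and 1628 in Dex+Cyc. Its ratio of Dex to mock was 0.339 without Cyc, Cyc raised it 10.2-fold (log2 change 3.40, SE 0.38, adjusted p = 9.63e-05), and Cyc and Dex+Cyc overlapped. Of the 25 genes of the jasmonate list, 4 had a named probe set, of which 1 was a member. In Cyc 2 of the 4 were higher and 0 were lower, beside 8.26% and 7.28% of all probe sets. The other higher gene, *JAZ6*, a repressor of jasmonate responses, had ratios of 0.488 without Cyc and 0.615 with it.

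AT1G20823 reached the highest level of this class. It gave 240, 466 and 428 in mock, 103, 183 and 194 in Dex, 3608, 6039 and 4945 in Cyc, and 4226, 5119 and 4780 in Dex+Cyc, and it was found whichever array was left out. *CYCP3;1*, a P-type cyclin, gave 122, 122 and 141 in mock, 49, 50.2 and 49 in Dex, 647, 1228 and 962 in Cyc, and 939, 1184 and 913 in Dex+Cyc. Its Dex arrays were under the floor and close together, and its log2 change in Cyc was 2.84 (SE 0.21, adjusted p = 7.2e-06). AT2G41090, annotated as a calmodulin-like calcium-binding protein, rose by 2.76 on the log2 scale (adjusted p = 1.04e-05), AT5G58120 by 2.22 (5.32e-05), AT4G20320, annotated as a CTP synthase, by 1.74 (6.45e-06) and 257382_at by 2.28 (9.17e-05). AT4G20320 and AT2G41090 had mock means of 1344 ± 133 and 691 ± 63.3 (SD, n = 3).

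The third class holds the 21 lowered members that did not pass the test, and not all of these were level with mock in Cyc. Of all 35 lowered members, all Cyc arrays were above all mock arrays in 12 and below them in 14 (18.1% and 31.8% of all probe sets), where 7 and 7 passed. In the third class, 258560_at and AT4G36580 had ratios of Cyc to mock of 2.82 and 1.85, and 248596_at and AT1G06000 had 0.497 and 0.508. *PIN6*, an auxin transporter, gave 304, 338 and 296 in mock, 178, 144 and 130 in Dex, 252, 375 and 267 in Cyc, and 183, 300 and 314 in Dex+Cyc. Dex arrays were low and apart from mock and from Cyc, but Dex+Cyc array 1 was close to the highest Dex array. The log2 change of *PIN6* in Cyc was −0.09 (SE 0.23, adjusted p = 0.807), and it was found in 8 of the 12 sets with 1 array left out, as was *sks4*. *DPA4*, a B3-domain TF of the shoot apex known to restrain leaf serration, gave 104, 120 and 138 in mock, 50.2, 54.1 and 52.3 in Dex, 120, 118 and 83.9 in Cyc, and 98.8, 101 and 78.2 in Dex+Cyc. Its signal in Dex was under the floor, and every Dex+Cyc array was above every Dex array.

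AT5G50915, annotated as a bHLH protein, gave 394, 426 and 447 in mock, 153, 178 and 185 in Dex, 317, 531 and 480 in Cyc, and 373, 410 and 394 in Dex+Cyc. It was low in Dex only. AT1G72180 (*CEPR2*), a receptor kinase for C-terminally encoded peptides, gave 210, 177 and 175 in mock, 67.7, 91.5 and 96.1 in Dex, 96, 143 and 130 in Cyc, and 133, 136 and 154 in Dex+Cyc. Its Cyc arrays lay below mock and overlapped with Dex at their low end, with a log2 change of −0.62 (adjusted p = 0.0217).

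The cell wall loosening list, with 14 named probe sets of which 8 were past the floor, held no member. The genes that follow were picked by annotation after the members were known, and they are no tested group. *sks4*, a protein similar to SKU5, gave 1152, 1020 and 1192 in mock, 453, 475 and 483 in Dex, 839, 844 and 966 in Cyc, and 667, 795 and 759 in Dex+Cyc. All its Dex+Cyc arrays were below Cyc, and the ratios were 0.839 with Cyc and 0.42 without it. AT1G04680, annotated as a pectate lyase, gave 1176, 995 and 931 in mock, 376, 637 and 494 in Dex, 956, 1146 and 1120 in Cyc, and 967, 1085 and 911 in Dex+Cyc, with Dex alone low.

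*CSLC04*, a synthase of the xyloglucan backbone, gave 129, 114 and 133 in mock, 63.4, 54.9 and 45.3 in Dex, and 200, 285 and 156 in Cyc. The ratio of Dex to mock was 0.436 for *CSLC04*, while the 3 other *CSLC* genes with a named probe set, *CSLC5*, *CSLC6* and *CSLC12*, had 0.73, 0.961 and 0.792 (a comparison chosen after the member was known). AT4G36010, annotated as a thaumatin family protein, gave 952, 833 and 902 in mock, 331, 309 and 387 in Dex, 1116, 1389 and 1269 in Cyc, and 1022, 1274 and 1080 in Dex+Cyc, and *BGLU44*, a β-glucosidase family gene, gave 1186, 850 and 1161, 415, 441 and 342, 678, 829 and 738, and 723, 731 and 595 in the same order. Both were apart in Dex from all other arrays and were found whichever array was left out. The other members of this class, *PLP6*, AT1G27030, AT4G36580, AT3G27550, AT1G68360, AT5G12900, 255645_at, 258560_at, 248596_at, 266693_at and 261266_at, had log2 changes in Cyc between −0.96 (248596_at) and 1.47 (258560_at).

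**Figure D4:**
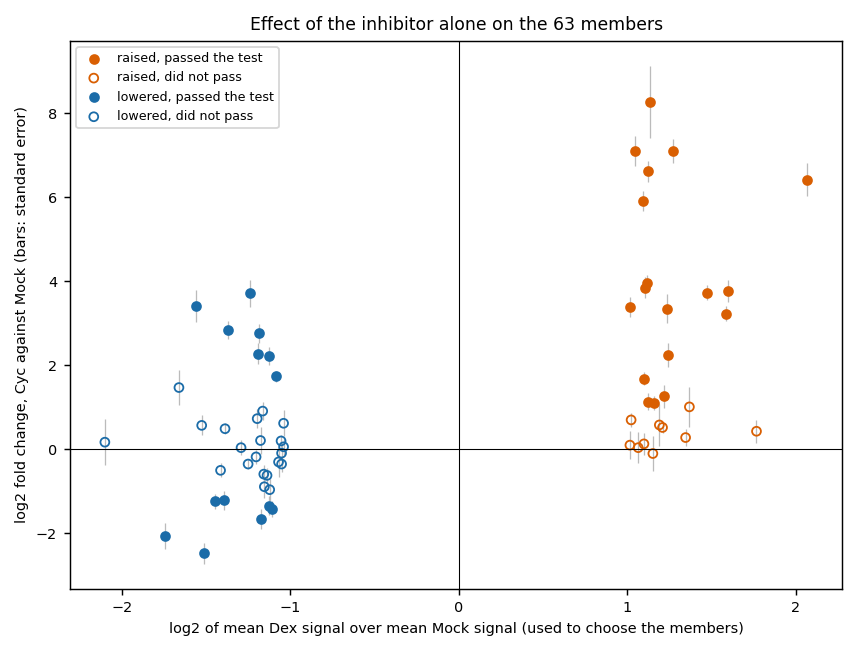
Log2 fold change in Cyc against mock from limma (vertical axis, bars show the SE) set against the log2 ratio of mean Dex to mean mock that chose the members (horizontal axis). The 18 raised members that passed all lie above 0, up to 8.27, and the 14 lowered members that passed lie on both sides, from −2.47 to 3.71.

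Responses kept with Cyc showed other counts in the same comparison. Of the 35 kept raised responses, 1 was higher in Cyc than in mock and 11 were lower, with a median log2 change of −0.65. Of the 88 kept lowered responses, 19 were higher and 26 were lower, with a median of −0.62. Among all probe sets past the floor, 8.49% were higher and 10.2% were lower. The kept raised set had its Cyc arrays below all Dex arrays in 34 of 35, where the raised members had 9 of 28. Over all probe sets this share was 33.1%, so the count of the raised members was near the background. The difference between the sets was not tested, and both the choice of the sets and this comparison use the Cyc arrays. The touch and early stress list, which held no member, had 15 genes, 6 of them with a named probe set and 4 past the floor. All 6 were higher in Cyc, beside 8.26% of all probe sets, with a median log2 change of 5.49. Of the 16 lists of hormone, stress, nutrient, cell wall, cell cycle and clock genes, only the gibberellin, jasmonate and flavonoid lists held a member, with 1 each.

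Some probe sets lay close to the edges of the rule. The closest was AT3G15770, which stayed out as raised with a ratio of Dex+Cyc to Cyc just above 1.2. AT5G66490 and AT5G24490 entered as raised at a ratio of Dex to mock of 2.022, and 250182_at and *ASG1* stayed out at 1.943 and 1.939. Among the lowered, AT1G04680 entered at 0.4861, and AT5G59990 stayed out at 0.5015. On the ratio of Dex+Cyc to Cyc, *CYP72A8* entered at 0.8316, 264788_at stayed out at 0.8075, *KAT5* entered at 0.8366 and *BRL2*, a receptor kinase related to the brassinosteroid receptor, stayed out at 0.8269. *SKS6* stayed out at 1.253, and *WAG2*, a protein kinase gene of auxin transport, met both ratios but had a mean of 98 where the floor was 100.

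The window of 0.83 to 1.2 is narrow beside the precision of 3 arrays. Its upper limit is 0.26 on the log2 scale, and the SE of a difference of 2 group means in the same fit had a median of 0.26 in the raised members (0.13 to 0.86) and 0.22 in the lowered members (0.11 to 0.54). It was above 0.26 in 14 raised and 8 lowered members. A weak response under Cyc could therefore be missed in most members, not only in these. Of the 13093 probe sets past the floor, 72.2% lay within the window.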

How the data were processed

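Gene expression was measured on 12 ATH1 arrays, 3 each for mock, Dex, Cyc and Dex+Cyc. The deposited file holds linear MAS5 intensity values for each probe set, which the authors scaled so that every array has a trimmed mean of 500 (2% removed from either tail). MAS5 and affy are named in the submitters' processing notes, without versions. GCRMA values, on which the study ran its own test, were not used here. Of 22810 probe sets, 64 controls were left out. A locus was given to 13484 probe sets by the platform annotation and to 1056 more by identifiers in the study's supplementary tables, and 8730 were not in the platform table. Of the members, 31 were named by the platform annotation, 19 by the supplementary tables and 13 stayed unnamed. Naming through tables of changed genes favours responding genes, so counts of named list genes are of what could be named.

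Members were found on linear means of signal. Cyc and mock were compared with limma on log2 signal (no added value), in a fit of 4 group means over 22746 probe sets with eBayes and Benjamini-Hochberg adjustment. The fit was tested on simulated data. For Dex against mock and Dex+Cyc against Cyc, which chose the members, no test is given. Arrays have no depth, and their number limits the precision. Members and gene lists were chosen with earlier results of these data known. Named genes are the members with symbols and the largest ratios of Dex to mock (15 in each direction) or largest and smallest changes in Cyc (5 each), those in a list or annotated as TF, receptor kinase or hormone enzyme, and those nearest to each limit. Other genes were named after their values were seen. A planned search for motifs in promoters was not run, because no promoter sequences were at hand. Alternatives were other normalizations, floors, windows, means and folds, a pseudocount of 32, other variance models and fits, 1 probe set per locus, the replicate number as a block, and each array left out. The software was limma 3.58.1 under R 4.3.3, with pandas 2.3.3, numpy 2.4.6 and matplotlib 3.10.9 under Python 3.11.15.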

Additional observations from a re-analysis of the deposited data

How the results depend on the processing

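The number of members depends on the limits of the rule. With a window of 0.9 to 1.1 the rule found 14 raised and 12 lowered, with a wider window that starts at 0.75 it found 44 and 58, with a floor of 200 it found 18 and 21, and with 3-fold it found 4 and 3. A floor of 50 gave 58 lowered, and centring each array on its median gave 23 lowered. Leaving out each array in turn gave 16 to 44 raised, with 16 without mock array 1, 18 without Dex array 1 and 44 without mock array 2, and 27 to 58 lowered, with 58 without mock array 2 (32 of them among the 35). The cause was not tested. The count of raised members higher in Cyc was 9 with a floor of 100 in mock too, an alternative chosen after seeing the data. Leaving out each array gave 16 to 18 raised members higher and 0 lower, and 7 to 8 lowered members higher and 6 to 9 lower. With the 6 mock and Cyc arrays alone 15 raised members were higher, and *GA2OX2*, *MYB12*, *RHM1*, AT1G21000 and AT5G49280 lost their calls.

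With the replicate number as a block the counts were 18 raised members higher, 0 lower, 7 lowered members higher and 7 lower, as without it. Same-numbered mock and Cyc arrays had correlations of −0.07, −0.17 and 0.01 of their deviations, and same-numbered Cyc and Dex+Cyc arrays 0.26, 0.19 and 0.04. Not every pair was above 0.1, so the numbers were not taken to pair the arrays.

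The sign of the change in Cyc turned only in members that did not pass. With each array left out in turn, the log2 change ranged from −0.14 to 0.48 for *CYTC6A*, −0.22 to 0.41 for AT5G24490, −0.40 to 0.28 for 250114_s_at, −0.06 to 0.96 for 261901_at, −0.57 to 0.23 for 267477_at, −0.13 to 0.50 for 266693_at, −0.22 to 0.44 for 255645_at, −0.11 to 0.26 for AT5G50915, −0.60 to 0.11 for AT1G68360, −0.01 to 0.15 for AT1G04680 and −0.27 to 0.02 for *PIN6*. AT5G54300 lost its call without any 1 of the mock or Cyc arrays.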
